A study of Homo sapiens with 12 samples.

Results

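The human mitochondrial genome is a circle of 16569 bases that carries 37 genes, and each of them has a row in the deposited count table under a name that begins with MT-. These 37 rows were chosen by that name from 58684 rows in all. They comprise 13 mRNAs for subunits of the respiratory chain and ATP synthase, the 2 rRNAs of the mitochondrial ribosome and the 22 tRNAs that serve it. By annotation 28 are heavy strand genes, on the plus strand of the reference, and 9 are light strand genes, on its minus strand. The light strand genes are MT-ND6 and 8 tRNAs.

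The RNA was taken from stable lines of U2OS, an established line from a human osteosarcoma, with either eIF4E-Flag or the vector. The protein eIF4E binds the m7G cap of mRNAs at the start of translation, and the series title asks about its effect on the steady level of capping. There were 4 groups of 3 libraries, namely cap immunoprecipitated RNA (Cap IP) of eIF4E cells, Cap IP of vector cells, total RNA (input) of eIF4E cells and input of vector cells. All 12 libraries were made with a kit that removes rRNA, RiboErase, and were read in 75 cycles from a single end. The promoter of the eIF4E construct, and whether a cell line is a single clone, are given neither by labels nor by files. The labels do not say whether replicates came from separate cultures, so a p-value here reflects the spread of these libraries alone, which may be technical. Input and Cap IP libraries whose titles share a stem are called a culture.

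Mitochondria transcribe both strands of their DNA into long RNAs that span many genes, with the polymerase POLRMT. The tRNAs lie between most of the other genes, and their release by RNase P at the front and ELAC2 at the rear frees the mRNAs and rRNAs on either side. Most light strand RNA has no gene in it and is removed by the degradosome of SUPV3L1 and PNPT1. The m7G cap is added in the nucleus, and mitochondrial RNA has none.

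The sequences of 8 tRNA genes are printed because their rows are described below, and no test used the bases. Each is read 5′ to 3′ on the gene's own strand from the GRCh38 reference with GENCODE 44 positions. T stands for U, and the anticodon is in capitals. The first 2 adjoin and overlap by 1 base, and their rows were far lower in Cap IP than in input. MT-TC (cysteine) lies at chrM:5761-5826, MT-TY (tyrosine) at chrM:5826-5891, MT-TA (alanine) at chrM:5587-5655, MT-TQ (glutamine) at chrM:4329-4400, MT-TS1 (serine) at chrM:7446-7514, MT-TE (glutamate) at chrM:14674-14742 and MT-TP (proline) at chrM:15956-16023, all on the minus strand. MT-TT (threonine) lies at chrM:15888-15953 on the plus strand.
MT-TC: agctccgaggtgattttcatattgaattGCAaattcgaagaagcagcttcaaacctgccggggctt
MT-TY: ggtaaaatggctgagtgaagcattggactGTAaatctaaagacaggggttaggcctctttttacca
MT-TA: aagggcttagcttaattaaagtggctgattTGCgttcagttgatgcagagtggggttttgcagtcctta
MT-TQ: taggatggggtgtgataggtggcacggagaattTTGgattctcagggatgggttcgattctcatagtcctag
MT-TS1: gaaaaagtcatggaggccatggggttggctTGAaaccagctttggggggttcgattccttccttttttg
MT-TE: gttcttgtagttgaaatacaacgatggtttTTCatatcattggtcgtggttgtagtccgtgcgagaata
MT-TP: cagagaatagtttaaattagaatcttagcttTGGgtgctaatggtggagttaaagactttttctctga
MT-TT: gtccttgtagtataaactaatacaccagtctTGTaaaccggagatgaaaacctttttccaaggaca

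The 31 bases at chrM:5730-5760, plus strand, part MT-TC from the next light strand tRNA gene, MT-TN. They are shown because they adjoin MT-TC, whose row was far lower in Cap IP than in input. They are the known stem and loop from which replication of the light strand starts, and a link to the level of MT-TC was not tested. MT-TN had no count in any library, so an edge of the lower rows cannot be placed at these bases. The rRNA rows, which fell in vector cells, lie elsewhere on the map.
MT-TN to MT-TC gap: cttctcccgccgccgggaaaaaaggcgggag
The 2 rows with the most counts, MT-ND5 and MT-ND6, end against each other on opposite strands. The 60 bases around that junction, chrM:14119-14178 on the plus strand, hold in capitals the end of both coding sequences, the stop codon of MT-ND5 followed by the last 3 bases of MT-ND6 read on the other strand.
ND5-ND6 junction: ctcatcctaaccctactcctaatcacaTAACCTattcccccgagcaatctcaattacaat

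Library totals lay between 1206321 and 1813486 counts, and 12460 rows had enough counts to be tested. Levels below are CPM, a row's counts over the library total, scaled with TMM factors, on which 3 counts stood for 1.16 to 3.09 CPM. EIF4E itself had 29, 26 and 27 counts in eIF4E Cap IP and 15, 12 and 30 in vector Cap IP, and 39, 27 and 23 in eIF4E input against 15, 9 and 15 in vector input. Its difference in input, 0.98 ± 0.36 (SE) on the log2 scale, did not pass (edgeR adjusted p = 0.231), so the counts are a weak check of the labels. Exons of an unnamed gene lie opposite EIF4E, and whether the EIF4E row holds RNA of that strand was not tested. Of 8 bone cell markers 7 had counts and IBSP had none, with a summed level of 782 to 1055 CPM in eIF4E input and 959.9 to 1403 CPM in vector input. COL1A1 and SPARC made up most of this, with 10693 and 5646 counts over all libraries. RUNX2 had 177 counts, ALPL 59, SP7 51, BGLAP 17 and COL1A2 2. The 5 blood markers held at most 10 counts each over all libraries, and the 4 epithelial markers summed to 2395 to 3902 CPM in eIF4E input and 1339 to 2197 CPM in vector input. The 4 neuronal markers summed to 43.6 to 70.2 CPM in eIF4E input and 40.3 to 46.3 CPM in vector input. The kit keeps the strand of the RNA, but neither labels nor files state which strand was counted. VIM-AS1, opposite to VIM, averaged 17369 counts in a library where VIM averaged 1289, and BEST1, opposite to FTH1, averaged 23099 where FTH1 averaged 548, each higher than its partner in 12 of 12 libraries. Whether an MT- row likewise holds RNA of the opposite strand was not tested, so each value below belongs to the named row, and not with certainty to the RNA of that gene.

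Of the 37 rows, 25 had enough counts to be tested, namely all 13 mRNAs, both rRNAs and 10 tRNAs. MT-TF, MT-TM and MT-TD had only 29 to 52 counts in total and went untested. The other 9, all tRNAs, had no count in any of 12 libraries. They are MT-TV, MT-TL1, MT-TN, MT-TK, MT-TG, MT-TR, MT-TH, MT-TS2 and MT-TL2, and a count of 0 allows up to 1.16 to 3.09 CPM per library. Only 3 of the 14 heavy strand tRNA rows were tested, against 7 of the 8 light strand ones. A description of position goes with this. The tRNA genes are 59 to 75 bases long and the reads had 75 cycles, and each of the 9 rows without counts has at most 31 bases free on its wider side before the next row of its own strand. The 13 tRNA rows with counts have at least 31, the lowest being MT-TC beside the sequence printed above. Whether reads that touch several rows were dropped in the counting was not tested.

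Mitochondrially encoded rows took a smaller share of the total counts in Cap IP than in input. They held 2.35, 0.885 and 1.91% of all counts in the eIF4E Cap IP libraries, against 2.87, 3.31 and 3.02% in eIF4E input. In vector cells they held 1.78, 0.378 and 2.45% in Cap IP, against 4.60, 3.14 and 3.36% in input. All 6 Cap IP libraries lay below all 6 input libraries, and vector Cap IP 2 lay lowest by far. This order rests on total counts as the denominator, with which the median of all tested rows was also lower in Cap IP. With TMM-scaled totals, chosen after the values were seen, the share was 3.36, 1.23 and 2.23% in eIF4E Cap IP against 1.94, 2.36 and 2.57% in eIF4E input, and 2.35, 0.561 and 2.74% in vector Cap IP against 3.73, 2.44 and 2.53% in vector input. Cap IP and input then overlapped in both kinds of cell.

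The mRNA rows made up nearly all of these counts. They held 2.30, 0.866 and 1.88% of eIF4E Cap IP against 2.79, 3.24 and 2.93% of eIF4E input, and 1.72, 0.367 and 2.43% of vector Cap IP against 4.35, 3.04 and 3.27% of vector input. The tested and untested tRNA rows together held 782, 266 and 355 counts in eIF4E Cap IP, 798, 149 and 326 in vector Cap IP, 1341, 803 and 1295 in eIF4E input and 2431, 1371 and 1626 in vector input. Vector input 1 stood highest of all for tRNA. The 2 rRNA rows together held only 4, 15 and 5 counts in eIF4E Cap IP, 8, 4 and 21 in vector Cap IP, 18, 104 and 87 in eIF4E input and 804, 132 and 30 in vector input. Vector input 1 stood apart here too, with more rRNA counts than the other 11 libraries together. The kit removes rRNA of cytosol and mitochondria. Whether these counts are rRNA that it left or RNA of the opposite strand was not tested.

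**Figure D1:**
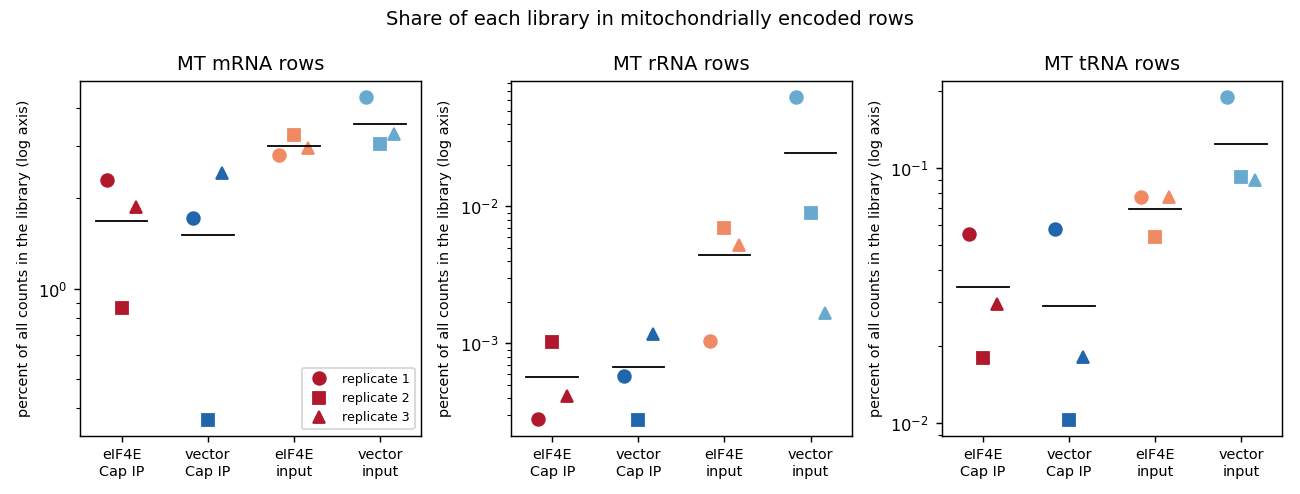
Percent of all counts of each library (y axes, log scale, a separate range for each panel) in the mRNA, rRNA and tRNA rows of the mitochondrial genome, for the 4 groups, with each replicate as a point and the group mean as a bar. Vector input 1 lies highest for rRNA and tRNA, and vector Cap IP 2 lies lowest for mRNA and tRNA.

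Light strand rows took a larger part of the mitochondrial counts in Cap IP than in input in 5 of 6 cultures. They held 21.1, 36.6 and 30.5% of the MT- counts in eIF4E Cap IP, against 11.7, 23.3 and 20.3% in eIF4E input. In vector cells the values were 28.7, 39.8 and 15.1% in Cap IP, against 21.8, 15.0 and 17.1% in input. The exception was vector culture 3, and MT-ND6 alone made up most of these counts. No test was made of these sums.

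Input levels per length differed widely between rows of the same strand. The rows of MT-ND5, MT-ND6, MT-ND4, MT-CYB and MT-ND1 held 78.3% of the 459397 counts that fell on MT- rows over all libraries. In input, MT-ND6, the only light strand mRNA and a subunit of complex I, had the highest level per kilobase of annotated length, with a mean of 7880.2 CPM per kilobase and a range of 3370.4 to 12678 over the 6 input libraries. MT-ND5, also of complex I, came next with 3895 CPM per kilobase and a range of 2641 to 6128, so the ranges of these neighbours overlapped. The tRNA rows MT-TY and MT-TC followed with 3537 and 3238 CPM per kilobase. MT-CO1, which encodes the catalytic subunit of cytochrome c oxidase, stood lower at 775 CPM per kilobase, with a range of 570.4 to 1141 that did not overlap that of MT-ND5 or MT-ND6. The rows of the 3 oxidase subunits differed among themselves, with 2187 CPM per kilobase for MT-CO3 and 1291 for MT-CO2. The lowest mRNA rows were those of ATP synthase, MT-ATP6 with 544 and MT-ATP8 with 537 CPM per kilobase, whose reading frames overlap by 46 bases. The rRNA rows MT-RNR1 and MT-RNR2 had 47.5 and 44.9 CPM per kilobase, below each tested tRNA row.

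**Figure D2:**
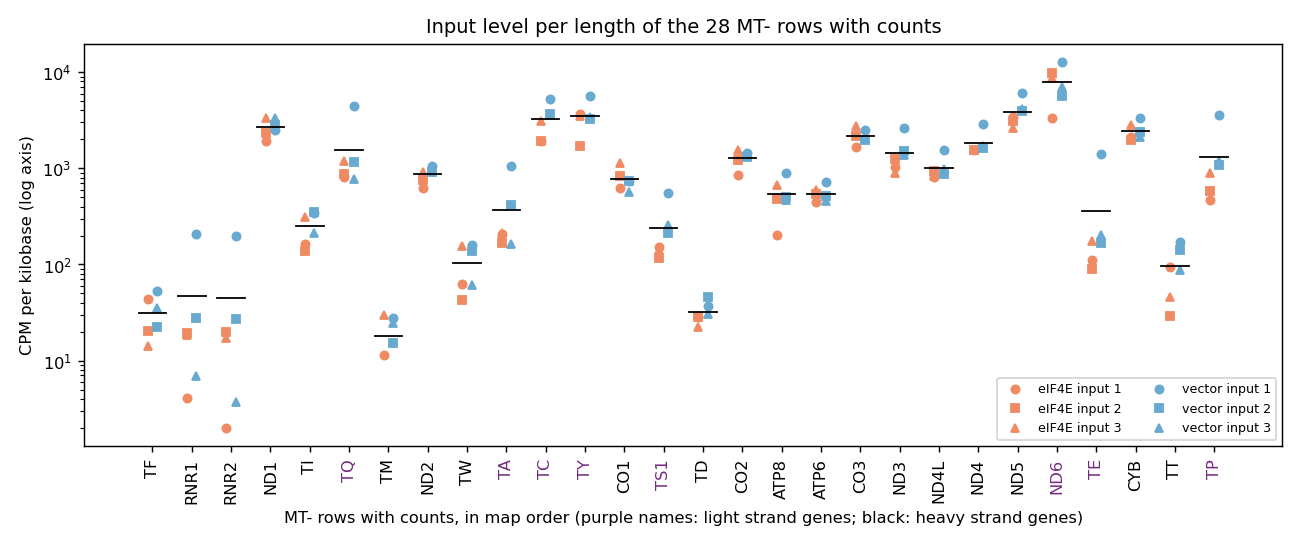
Level per length in input, in CPM per kilobase on a log axis, of the 28 MT- rows with counts in map order along the x axis, for 3 eIF4E and 3 vector input libraries, with the mean of the 6 libraries as a bar. The MT-TM row of eIF4E input 2 is at 0 and is not drawn. MT-ND6 has the highest mean, and vector input 1 lies highest for both rRNA rows and for MT-TQ, MT-TA, MT-TE and MT-TP.

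Cap IP against input asks which RNAs were recovered with capped RNA. The rows of cytochrome c oxidase and the tRNA rows MT-TC and MT-TY were far lower in Cap IP than in input in eIF4E and in vector cells. The rows of MT-ND1, MT-ND2, MT-ND5 and MT-ND6 did not pass in either kind of cell, and 4 tRNA rows were higher in Cap IP in eIF4E cells. In eIF4E cells 6 of the 25 tested rows fell and 4 rose, where 23.3% of all 12460 tested rows fell and 21.9% rose. In vector cells 11 of 25 fell and none rose, where 21.0% of all rows fell and 18.5% rose. A call needs an adjusted p (Benjamini-Hochberg) under 0.05 over all 12460 rows in edgeR's quasi-likelihood test. The median fitted log2 change of the 25 rows was -0.38 in eIF4E cells and -0.98 in vector cells, beside -0.13 and -0.05 for all rows. With total counts in place of TMM the median of all rows moved to -0.97 in eIF4E cells and -0.76 in vector cells. Then 11 of the 25 rows fell and 1 rose in eIF4E cells, where 5805 of all 12460 rows fell and 1120 rose. In vector cells 14 of the 25 fell, where 4949 of all rows fell and 774 rose. Without replicate 2 in both Cap IP groups, 6 fell and 4 rose in eIF4E cells, where 2267 of all rows fell and 2236 rose. In vector cells 9 fell without them, where 2114 of all rows fell and 1800 rose.

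MT-CO1, MT-CO2 and MT-CO3 encode the mitochondrial subunits of cytochrome c oxidase, complex IV. MT-CO1 had 187, 122 and 186 CPM in eIF4E Cap IP, against 964, 1283 and 1759.6 CPM in eIF4E input. In vector cells MT-CO1 had 139, 70.1 and 127 CPM in Cap IP, against 1150.2, 1137 and 879.5 CPM in input. Every Cap IP library was thus far under every input library. MT-CO1 fell by 3.02 ± 0.34 (SE) on the log2 scale in eIF4E cells (edgeR adjusted p = 2.45e-06) and by 3.23 ± 0.34 in vector cells (edgeR adjusted p = 1.77e-06), which are 8.09-fold and 9.39-fold. MT-CO2 had 166, 50.2 and 147 CPM in eIF4E Cap IP against 583, 834 and 1051 in eIF4E input, and 88.6, 36.1 and 127 in vector Cap IP against 999, 888 and 945 in vector input. Its groups did not overlap either, and its log2 changes were -2.77 ± 0.43 in eIF4E cells (edgeR adjusted p = 4.48e-05) and -3.48 ± 0.44 in vector cells (edgeR adjusted p = 1.14e-05). MT-CO3 had 599, 179 and 392 CPM in eIF4E Cap IP against 1292, 1705 and 2176 in eIF4E input, and 316, 81.4 and 384 in vector Cap IP against 1979.8, 1557 and 1575 in vector input. Its log2 changes of -2.15 ± 0.46 (edgeR adjusted p = 0.000860) and -2.70 ± 0.47 (edgeR adjusted p = 0.000186) passed in eIF4E and vector cells. All 3 rows passed with each library left out in turn in both kinds of cell.

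MT-TC and MT-TY, whose sequences open the set above, lie just before MT-CO1 on the other strand. MT-TC had 8, 15 and 10 counts, or 8.05, 14.2 and 9.72 CPM, in eIF4E Cap IP, against 328, 264 and 402 counts, or 127, 127 and 205 CPM, in eIF4E input. In vector cells MT-TC had 17, 7 and 22 counts, or 16.2, 7.21 and 13.8 CPM, in Cap IP, against 545, 462 and 570 counts, or 345, 242 and 236 CPM, in input. No Cap IP library came near an input library. Its fitted log2 change was -3.83 ± 0.36 in eIF4E cells (edgeR adjusted p = 5.80e-07) and -4.44 ± 0.36 in vector cells (edgeR adjusted p = 6.91e-08). MT-TY had 34.2, 10.4 and 20.4 CPM in eIF4E Cap IP against 242, 113 and 233 in eIF4E input, and 27.6, 13.4 and 15.0 in vector Cap IP against 369, 216 and 228 in vector input. It fell by 9.04-fold in eIF4E cells (edgeR adjusted p = 1.03e-05) and by 14.5-fold in vector cells (edgeR adjusted p = 2.94e-06). These 2 rows also passed with each library left out in turn. The cultures agreed closely for MT-TY, with log2 differences of -2.75, -3.21 and -3.39 in eIF4E cells and -3.65, -3.82 and -3.76 in vector cells, on log2 of CPM + 2.

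**Figure D3:**
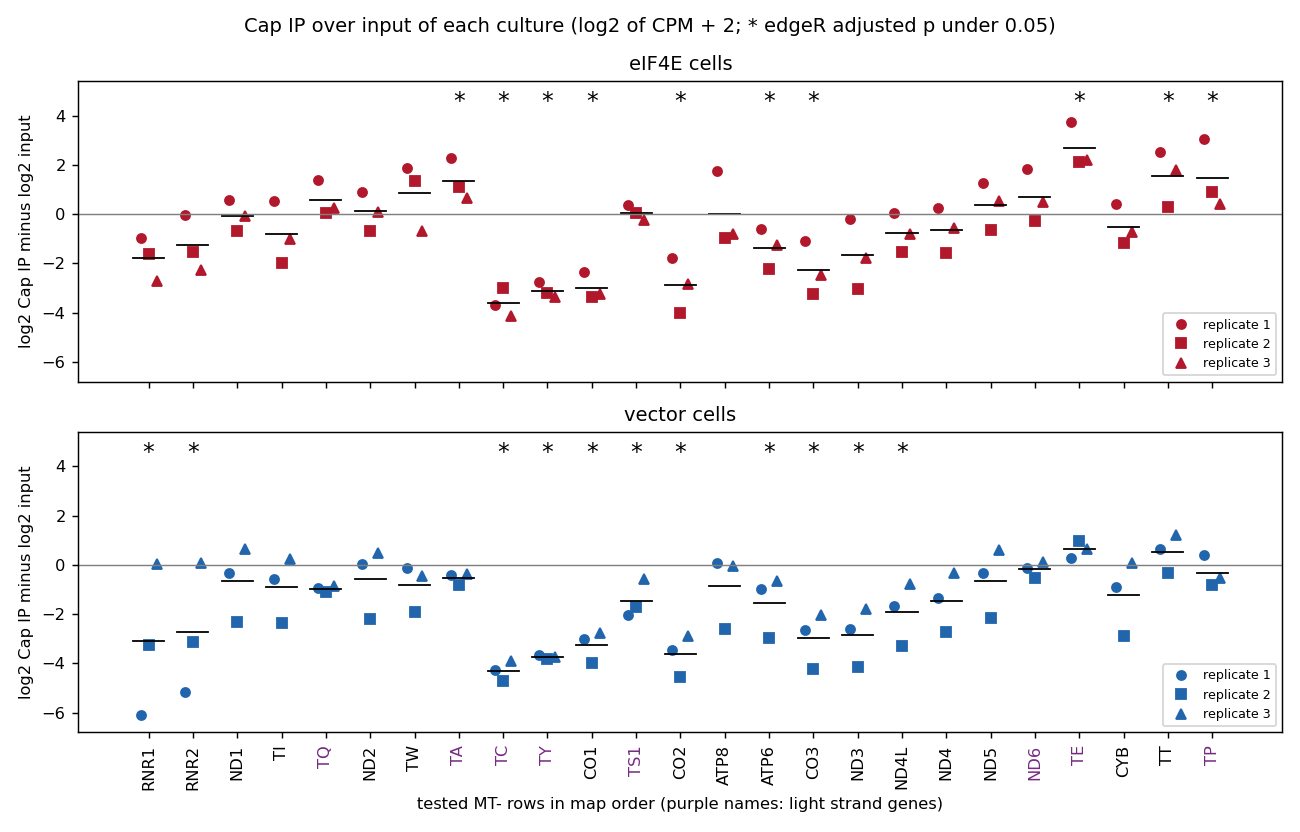
Log2 of (CPM + 2) in Cap IP minus that in input for each culture (y axis), for the 25 tested rows in map order, with eIF4E cells above and vector cells below, replicates as points and their mean as a bar. Stars mark rows with an edgeR adjusted p under 0.05. Every culture lies under 0 for the starred rows from MT-TC to MT-ND4L, and the starred rows above 0 are MT-TA, MT-TE, MT-TT and MT-TP in eIF4E cells.

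The rRNA rows fell in vector cells. MT-RNR1, the rRNA of the small mitochondrial ribosome subunit, had 1, 5 and 1 counts in eIF4E Cap IP against 10, 39 and 35 in eIF4E input, and 1, 1 and 11 in vector Cap IP against 313, 51 and 16 in vector input. MT-RNR2, of the large subunit, had 3, 10 and 4 counts in eIF4E Cap IP against 8, 65 and 52 in eIF4E input, and 7, 3 and 10 in vector Cap IP against 491, 81 and 14 in vector input. Most of the input counts of vector cells came from vector input 1, and vector input 3 lay near its own Cap IP library. The fitted log2 change of MT-RNR1 was -2.51 ± 1.18 in eIF4E cells (edgeR adjusted p = 0.0885, not passed) and -4.45 ± 0.99 in vector cells (edgeR adjusted p = 0.00149). That of MT-RNR2 was -1.84 ± 1.07 in eIF4E cells (edgeR adjusted p = 0.166, not passed) and -4.42 ± 1.01 in vector cells (edgeR adjusted p = 0.00191). Without vector input 1 the vector values were -2.25 for MT-RNR1 and -2.10 for MT-RNR2 (edgeR adjusted p = 0.0300 and 0.0416). Without eIF4E input 1 the eIF4E value of MT-RNR1 was -2.97 and passed (edgeR adjusted p = 0.0456). With the culture as a replicate block both rRNA rows passed in eIF4E cells, at -2.54 for MT-RNR1 and -1.81 for MT-RNR2 (edgeR adjusted p = 0.00266 and 0.00501).

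Complex I is the NADH dehydrogenase, and its 7 mitochondrial subunits did not move alike. MT-ND3 had 305, 50.2 and 88.5 CPM in eIF4E Cap IP against 355, 428 and 306 in eIF4E input, and 148, 27.8 and 137 in vector Cap IP against 910.0, 526 and 474 in vector input. All vector Cap IP libraries lay under all vector input libraries, while eIF4E Cap IP 1 lay beside the input values. MT-ND3 fell by 2.60 ± 0.55 on the log2 scale in vector cells (edgeR adjusted p = 0.00103), and its change in eIF4E cells was -1.30 ± 0.53 (edgeR adjusted p = 0.0511), which became -2.40 without eIF4E Cap IP 1 (edgeR adjusted p = 0.00160). MT-ND4L, which shares 7 bases with MT-ND4, fell in vector cells (-1.57 ± 0.46, edgeR adjusted p = 0.0104) and had -0.66 ± 0.45 in eIF4E cells (edgeR adjusted p = 0.239). MT-ND4 had -0.46 ± 0.47 in eIF4E cells (edgeR adjusted p = 0.449) and -1.17 ± 0.48 in vector cells, not passed (edgeR adjusted p = 0.0573). With the culture as a replicate block the vector value of MT-ND4 was -1.44 and passed (edgeR adjusted p = 0.000396), and so did MT-CYB at -1.20 and MT-TQ at -0.99 (edgeR adjusted p = 0.00505 and 0.00147). In eIF4E cells the same block gave -1.64 for MT-ND3 and -0.76 for MT-ND4L, and both passed (edgeR adjusted p = 0.000112 and 0.0294). Without vector Cap IP 3 the values of MT-ND4 and MT-ND1 were -1.57 and -1.17 and passed (edgeR adjusted p = 0.0231 and 0.0425).

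MT-ND5 and MT-ND6 kept high levels in Cap IP. MT-ND5 had 14959, 3583 and 6875 CPM in eIF4E Cap IP against 6259, 5624 and 4785 in eIF4E input, and 8710.1, 1606 and 11213 in vector Cap IP against 11104, 7132 and 7441 in vector input. MT-ND6 had 6375, 4281 and 6501 CPM in eIF4E Cap IP against 1769, 5144 and 4582 in eIF4E input, and 6028, 2088 and 3986 in vector Cap IP against 6656, 2986 and 3685 in vector input. For both rows the Cap IP values ran across the input values, and vector Cap IP 2 was the lowest of its group. The fitted log2 changes of MT-ND5 were 0.61 ± 0.52 in eIF4E cells and -0.25 ± 0.52 in vector cells, and neither passed (edgeR adjusted p = 0.357 and 0.733). Those of MT-ND6 were 0.58 ± 0.43 and -0.14 ± 0.43 (edgeR adjusted p = 0.280 and 0.823), and with total counts in place of TMM the eIF4E values turned to -0.27 for MT-ND5 and -0.22 for MT-ND6. MT-ND1 had -0.02 ± 0.50 in eIF4E cells and -0.16 ± 0.50 in vector cells, and MT-ND2 had 0.19 ± 0.45 and -0.16 ± 0.45 (edgeR adjusted p between 0.751 and 0.972 for these 4 values).

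MT-CYB, the cytochrome b of complex III, had 3154, 994 and 1923 CPM in eIF4E Cap IP against 2389, 2273 and 3228 in eIF4E input, and 2031, 366 and 2564 in vector Cap IP against 3771, 2743 and 2426 in vector input. Its groups overlapped in both kinds of cell, and neither log2 change passed (-0.38 ± 0.49 in eIF4E cells and -0.85 ± 0.49 in vector cells, edgeR adjusted p = 0.548 and 0.177). MT-ATP6, a subunit of the membrane part of ATP synthase, had 201, 76.7 and 166 CPM in eIF4E Cap IP against 305, 369 and 402 in eIF4E input, and 243, 43.3 and 193 in vector Cap IP against 488, 350.0 and 308 in vector input. All Cap IP libraries lay under the input libraries of the same cells. MT-ATP6 fell by 1.28 ± 0.43 in eIF4E cells (edgeR adjusted p = 0.0217) and by 1.25 ± 0.43 in vector cells (edgeR adjusted p = 0.0269). The eIF4E call was lost without eIF4E Cap IP 2 (edgeR adjusted p = 0.110) or eIF4E input 3 (0.0563), and the vector call without vector input 1 (0.0928) or vector Cap IP 2 (0.0957). MT-ATP8, the other such subunit, had log2 changes of -0.04 ± 0.56 in eIF4E cells and -0.35 ± 0.56 in vector cells, and neither passed (edgeR adjusted p = 0.962 and 0.645).

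In eIF4E cells 4 tRNA rows rose in Cap IP, namely the light strand rows MT-TE, MT-TP and MT-TA and the heavy strand row MT-TT. MT-TE, the glutamate tRNA next to MT-ND6, had 128, 36 and 64 counts, or 129, 34.1 and 62.2 CPM, in eIF4E Cap IP, against 20, 13 and 24 counts, or 7.74, 6.23 and 12.2 CPM, in eIF4E input. In vector cells MT-TE had 120.1, 24.7 and 23.2 CPM in Cap IP, against 98.2, 11.5 and 14.1 CPM in input. The eIF4E groups did not overlap, and vector input 1 stood high among the vector input values. MT-TE rose by 3.10 ± 0.75 on the log2 scale in eIF4E cells (edgeR adjusted p = 0.00249), and by 2.46 without eIF4E Cap IP 1 (edgeR adjusted p = 0.0183). Its vector value of 0.45 ± 0.68 did not pass (edgeR adjusted p = 0.626), but without vector input 1 it was 2.11 and passed (edgeR adjusted p = 0.0137).

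MT-TT, the threonine tRNA beside MT-CYB, had 45, 3 and 16 counts in eIF4E Cap IP against 16, 4 and 6 in eIF4E input, and 20, 7 and 26 in vector Cap IP against 18, 18 and 14 in vector input. MT-TP, the proline tRNA on the strand across from it, had 279.6, 75.7 and 81.6 CPM in eIF4E Cap IP against 31.8, 39.3 and 60.6 in eIF4E input, and 320.3, 40.2 and 55.7 in vector Cap IP against 244, 72.8 and 80.5 in vector input. MT-TA, the alanine tRNA, had 76.5, 26.5 and 24.3 CPM in eIF4E Cap IP against 14.3, 11.5 and 14.8 in eIF4E input, and 53.4, 15.5 and 8.14 in vector Cap IP against 72.2, 28.8 and 11.2 in vector input. For MT-TP and MT-TA all eIF4E Cap IP libraries lay above all eIF4E input libraries, and eIF4E Cap IP 1 was the highest of them for all 3 rows. In eIF4E cells the log2 changes were 2.44 ± 0.66 for MT-TT, 1.73 ± 0.64 for MT-TP and 1.64 ± 0.62 for MT-TA (edgeR adjusted p = 0.00526, 0.0335 and 0.0370), and in vector cells 0.71 ± 0.62, 0.07 ± 0.62 and -0.55 ± 0.61, none of which passed. These 3 calls rest on eIF4E Cap IP 1 and on the scaling, since without that library the values were 1.24, 0.85 and 0.90 (edgeR adjusted p = 0.160, 0.313 and 0.299) and with total counts 1.57, 0.89 and 0.77 (0.0613, 0.238 and 0.295). Leaving out eIF4E input 1 or 2 also ended the calls of MT-TP (0.102 and 0.0861) and MT-TA (0.0719 and 0.0956), and leaving out eIF4E input 3 that of MT-TA (0.0738). DESeq2 did not call MT-TP (DESeq2 adjusted p = 0.101).

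MT-TS1, the serine tRNA behind MT-CO1, fell in vector cells, with 14, 9 and 8 counts in eIF4E Cap IP against 27, 17 and 19 in eIF4E input, and 8, 3 and 18 in vector Cap IP against 60, 28 and 43 in vector input. Its log2 change was 0.10 ± 0.47 in eIF4E cells (edgeR adjusted p = 0.886) and -1.59 ± 0.46 in vector cells (edgeR adjusted p = 0.00984), and the vector call was lost without vector input 1 (0.0876) or vector Cap IP 2 (0.0551). MT-TQ, the glutamine tRNA, had 155, 68 and 103 counts in eIF4E Cap IP against 151, 131 and 167 in eIF4E input, and 174, 37 and 47 in vector Cap IP against 504, 160 and 134 in vector input. With TMM scaling all eIF4E cultures were above 0 and all vector cultures below it, with log2 differences of 1.38, 0.04 and 0.23 in eIF4E cells and -0.94, -1.10 and -0.87 in vector cells. As a share of total counts, MT-TQ was lower in Cap IP than in input in eIF4E cultures 2 and 3. Without vector Cap IP 1 the vector value of MT-TQ, -0.98 ± 0.58, became -2.18 and passed (edgeR adjusted p = 0.00726). MT-TI and MT-TW, for isoleucine and tryptophan, had 284 and 136 counts over all libraries and passed in neither kind of cell.

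Most of the mRNA and tRNA rows that fell lie in 1 stretch of the map, while the rRNA rows, which fell in vector cells, lie outside it. Between MT-TC and MT-ND4L, an arc of 5006 bases (chrM:5761-10766) with 14 rows of which 10 were tested, 6 rows fell in eIF4E cells and 9 in vector cells, MT-ATP8 being the exception in vector cells. Of all tested rows 23.3% fell in eIF4E cells and 21.0% in vector cells. The median log2 change of the 10 rows was -1.72 in eIF4E cells and -2.65 in vector cells. Of the other 13 tested mRNA and tRNA rows none fell in either kind of cell in the edgeR fit with TMM and no block. Their medians were 0.61 in eIF4E cells and -0.25 in vector cells. With the culture as a replicate block, 3 of these 13 fell in vector cells, namely MT-ND4, MT-CYB and MT-TQ, with the values given above. With that block 3187 of all 12460 rows fell in vector cells. DESeq2 also called MT-ND4 in vector cells (DESeq2 adjusted p = 0.0357). With total counts and no block MT-ND4, MT-CYB and MT-TQ fell in vector cells, at -1.81, -1.48 and -1.70 (edgeR adjusted p = 0.00693, 0.0238 and 0.0237). In eIF4E cells MT-ND4 then fell by 1.31 (edgeR adjusted p = 0.0323). The arc holds rows of both strands and of mRNA and tRNA alike, and GC content spans 39.6 to 49.3% inside it and 29.0 to 48.6% in the other 13 rows. The arc was marked out after the values were seen, around rows that fell. The contrast with the other 13 rows follows from that choice, so the arc has no test of its own.

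A ratio between rows of the same library does not depend on the scaling. For each count of MT-ND5 there were 0.0125, 0.0341 and 0.0270 counts of MT-CO1 in eIF4E Cap IP, against 0.154, 0.228 and 0.368 in eIF4E input. In vector cells the ratio was 0.0160, 0.0436 and 0.0113 in Cap IP, against 0.104, 0.159 and 0.118 in input. All 6 Cap IP ratios lay under all 6 input ratios, vector Cap IP 2 included. For each count of MT-TQ there were 0.0516, 0.221 and 0.0971 counts of MT-TC in eIF4E Cap IP against 2.17, 2.02 and 2.41 in eIF4E input, and 0.0977, 0.189 and 0.468 in vector Cap IP against 1.08, 2.89 and 4.25 in vector input, again without overlap between Cap IP and input. The ratio of MT-ND6 to MT-ND5, by contrast, was 0.426, 1.20 and 0.946 in eIF4E Cap IP against 0.283, 0.915 and 0.958 in eIF4E input, and 0.692, 1.30 and 0.355 in vector Cap IP against 0.599, 0.419 and 0.495 in vector input, with overlap throughout. These pairs were chosen after the values were seen and are given without a test.

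**Figure D4:**
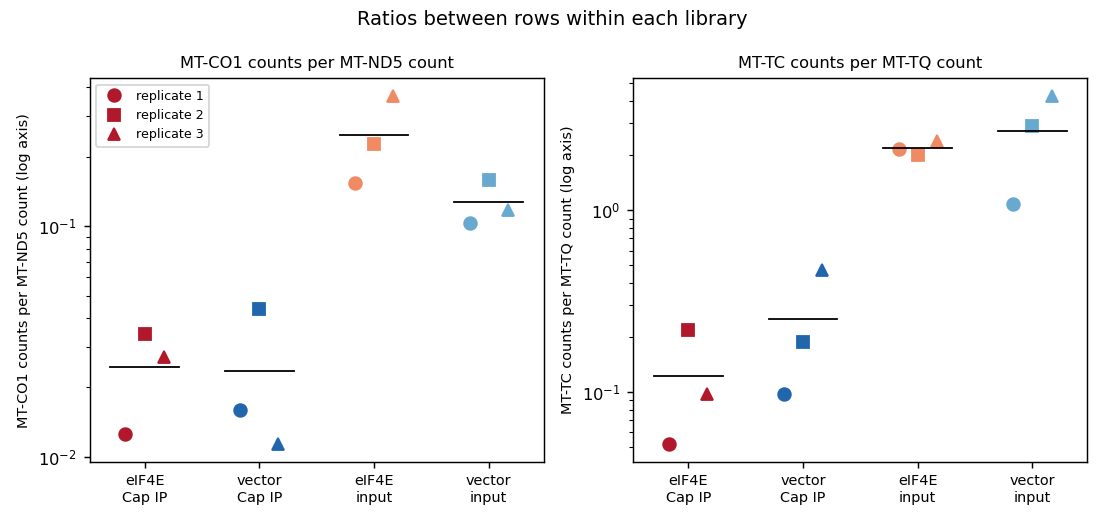
Counts of MT-CO1 per count of MT-ND5 (left) and of MT-TC per count of MT-TQ (right) in each library, on log axes, for the 4 groups, with each replicate as a point and the group mean as a bar. In both panels every Cap IP library lies below every input library.

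None of the 25 rows passed between eIF4E and vector cells within Cap IP, where 28 of all 12460 rows (0.225%) passed. At an unadjusted edgeR p under 0.05 there was 1 of the 25 rows, MT-TW, beside 1146 of all 12460 rows, and DESeq2 called none of the 25. In bulk libraries of 2 lines, fewer cells with much of an RNA and less of that RNA per cell cannot be told apart. MT-CO1, with 187, 122 and 186 CPM in eIF4E Cap IP against 139, 70.1 and 127 CPM in vector Cap IP, had a log2 difference of 0.55 ± 0.32 (edgeR adjusted p = 0.642). MT-CO2 had 0.51 ± 0.41 and MT-CO3 0.58 ± 0.44 (edgeR adjusted p = 0.770 and 0.759), and MT-ND6 had 0.50 ± 0.43 (edgeR adjusted p = 0.781). The rRNA rows MT-RNR1 and MT-RNR2 had -0.57 ± 1.47 and 0.01 ± 1.29 (edgeR adjusted p = 0.943 and 1.00), on 4 to 21 counts of rRNA per library. Among the tRNA rows the smallest p values were those of MT-TW, with 21, 11 and 6 counts in eIF4E Cap IP against 10, 1 and 4 in vector Cap IP, and of MT-TA. Their log2 differences were 1.53 ± 0.70 for MT-TW and 0.75 ± 0.62 for MT-TA (edgeR adjusted p = 0.511 and 0.776). The median of the 25 rows was 0.29, beside -0.01 for all rows, and leaving out 1 library moved it between -0.15, without eIF4E Cap IP 1, and 0.69, without vector Cap IP 3.

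In input, too, none of the 25 rows passed between eIF4E and vector cells, where 66 of all 12460 rows (0.530%) passed. The 10 tRNA rows and both rRNA rows all had negative fitted differences, where 6673 of all 12460 rows did. This sign did not hold in each replicate. Paired by title tag, eIF4E minus vector in replicate 3 was 1.20 for MT-RNR1 and 1.87 for MT-RNR2. It was also above 0 there for MT-TI, MT-TQ, MT-TW, MT-TA and MT-TY. MT-TC, MT-TS1, MT-TE, MT-TT and MT-TP were below 0 in all 3 replicates. At an unadjusted edgeR p under 0.05 there were 7 of the 25 rows, beside 1681 of all 12460 rows, and DESeq2 called none of the 25. MT-TS1 had 10.5, 8.15 and 9.67 CPM in eIF4E input against 38.0, 14.7 and 17.8 CPM in vector input, without overlap, and a log2 difference of -1.29 ± 0.42 (edgeR adjusted p = 0.170). MT-TE had 7.74, 6.23 and 12.2 CPM in eIF4E input against 98.2, 11.5 and 14.1 CPM in vector input, a difference of -2.21 ± 0.74 (edgeR adjusted p = 0.182). MT-TC had -0.85 ± 0.29 and MT-TP -1.59 ± 0.64 (edgeR adjusted p = 0.197 and 0.273), with MT-TC at 127, 127 and 205 CPM in eIF4E input against 345, 242 and 236 CPM in vector input. The 3 libraries of each group did not overlap for MT-TC. The rRNA rows had -2.52 ± 0.79 for MT-RNR1 and -2.57 ± 0.84 for MT-RNR2 (edgeR adjusted p = 0.160 and 0.170), and without vector input 1 these were -0.30 and -0.24. MT-TE likewise went to -0.55 and MT-TS1 to -0.77 without that library.

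The mRNA rows lay closer together in input. Their fitted differences ran from -0.81 for MT-ND3 (-0.81 ± 0.52, edgeR adjusted p = 0.507) to 0.34 for MT-CO1 (0.34 ± 0.31, edgeR adjusted p = 0.652), with a median of -0.21. MT-ND5 had -0.62 ± 0.52 and MT-ND6 -0.21 ± 0.43 (edgeR adjusted p = 0.626 and 0.862). For MT-CO1 the values were 964, 1283 and 1759.6 CPM in eIF4E input, against 1150.2, 1137 and 879.5 CPM in vector input, which overlap.

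**Figure D5:**
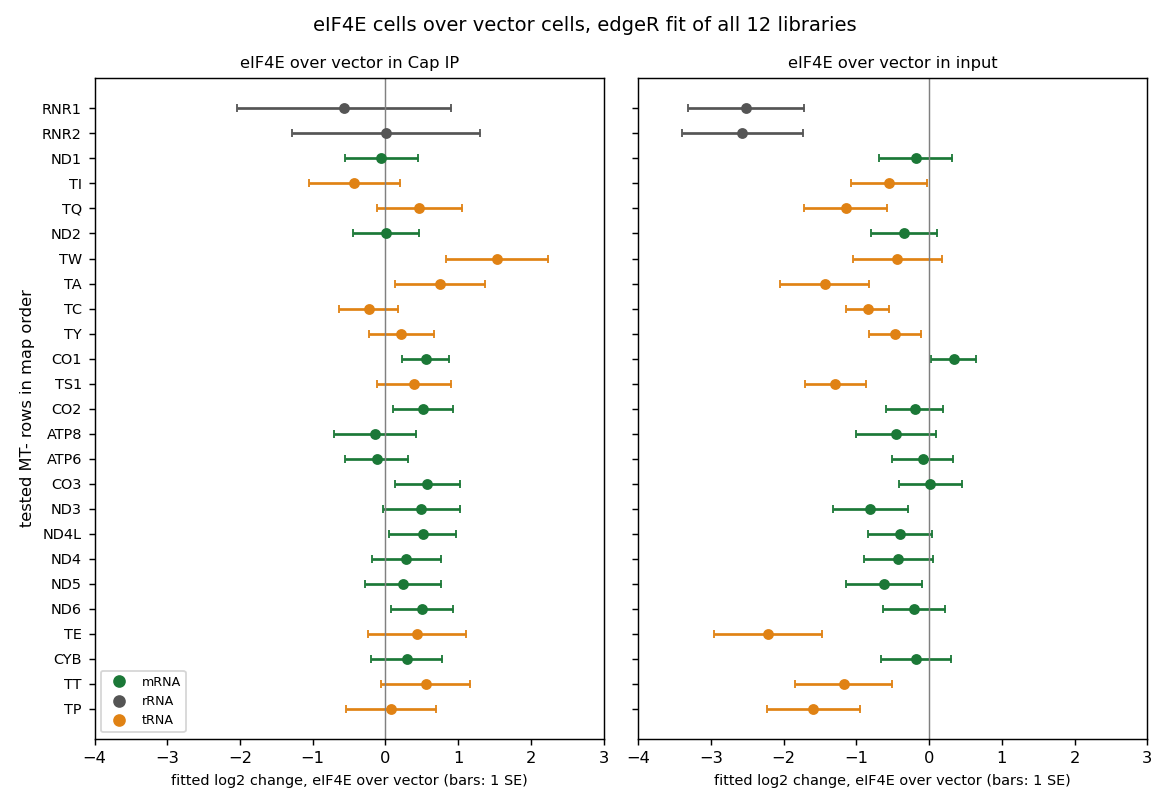
Fitted log2 difference of eIF4E over vector cells (x axes, bars of 1 SE from the edgeR fit) for the 25 tested rows in map order, in Cap IP (left) and in input (right), with mRNA, rRNA and tRNA rows in different colours. In input both rRNA rows and all 10 tRNA rows lie left of 0, and no row passed in either panel.

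The difference between eIF4E and vector cells in their change of Cap IP over input was positive in 24 of the 25 rows, and none passed without a replicate block. Of all 12460 rows 6399 were positive. The 25 values come from the same 12 libraries, so their signs are not independent of each other. Over all 12460 rows none passed either (0.00%), and at an unadjusted p under 0.05 there were 734 rows, of which 4 were MT- rows. DESeq2 called none. These 4 were MT-TE with 2.65 ± 1.00, MT-TA with 2.19 ± 0.87, MT-TW with 1.97 ± 0.94 and MT-TS1 with 1.68 ± 0.67 (edgeR adjusted p = 0.832 for each). With the culture as a replicate block 51 of all 12460 rows passed. Of the 25 MT- rows 4 did, MT-TE at 2.39, MT-TA at 2.11, MT-TP at 1.80 and MT-TQ at 1.57 (edgeR adjusted p = 0.00804, 0.0235, 0.04999 and 0.0374). Of the mRNA rows MT-ND3 had 1.30 ± 0.74, MT-ND4L 0.91 ± 0.64 and MT-CO2 0.71 ± 0.57 (edgeR adjusted p = 0.834, 0.859 and 0.878). MT-ND6 had 0.72 ± 0.60, MT-CO1 0.21 ± 0.44, MT-RNR1 1.94 ± 1.79 and MT-RNR2 2.58 ± 1.55 (edgeR adjusted p = 0.883, 0.954, 0.888 and 0.839). The median of the 25 rows was 0.72, beside 0.02 for all rows, and it was 0.41 without vector input 1, 0.41 without eIF4E Cap IP 1, 0.39 without vector Cap IP 2 and 1.14 without vector Cap IP 3. Without vector input 1 the value of MT-TE was 0.99.

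Nuclear copies of mitochondrial genes could share reads with the MT- rows. Of 310 rows named as such copies 101 had counts and 9 were tested, with 3805 counts in all, which is 0.378 to 1.14% of the MT- counts of a library. The copy with the most counts, MTATP6P1 (chromosome 1, 633696 to 634376, GRCh38), matches MT-ATP6 at 98.53% of 681 aligned bases. It fell in Cap IP, as MT-ATP6 did, by 1.43 ± 0.44 in eIF4E cells (edgeR adjusted p = 0.0126) and 1.70 ± 0.44 in vector cells (edgeR adjusted p = 0.00506). MTND2P28 (chromosome 1, 629640 to 630683) matches MT-ND2 at 98.37% of 1042 bases and had -0.90 ± 0.56 in eIF4E cells and -0.41 ± 0.54 in vector cells (edgeR adjusted p = 0.199 and 0.570). In vector cells every tested copy but MTND2P28 fell, where 21.0% of all rows fell. In eIF4E cells MTATP6P1, MTCO1P40, MTCO3P12 and MTRNR2L4 fell, where 23.3% of all rows fell. MTND5P11 fell by 1.44 ± 0.55 in vector cells (edgeR adjusted p = 0.0410), where MT-ND5 did not pass. MTCO1P28 fell by 2.26 ± 0.55 in vector cells (edgeR adjusted p = 0.00320). It had -0.17 ± 0.50 in eIF4E cells (edgeR adjusted p = 0.807), where MT-CO1 fell. How reads that fit both places were assigned was not tested.

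Nuclear RNAs made by RNA polymerase III, which lack the m7G cap, fell in Cap IP. All 4 tested of 5 listed, RN7SK, RN7SL1, RMRP and RPPH1, passed in both kinds of cell, with a median log2 change of -8.29 in eIF4E cells and -8.33 in vector cells. RN7SK, which holds back the elongation factor P-TEFb, had 11.1, 8.52 and 10.7 CPM in eIF4E Cap IP against 2646, 2820.1 and 4689 in eIF4E input, and 5.72, 1.03 and 17.5 in vector Cap IP against 3823, 2443 and 2735 in vector input. The lowest MT- values were -3.83 in eIF4E cells, for MT-TC, and -4.45 in vector cells, for MT-RNR1. No test of this gap was made.

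Nuclear genes for mitochondrial transcription, RNA processing and RNA decay were followed in the same fits. Of 56 such rows 37 were tested. In Cap IP against input 4 rose and 8 fell in eIF4E cells, where 21.9% of all rows rose and 23.3% fell. In vector cells 2 rose and 7 fell, where 18.5% of all rows rose and 21.0% fell. The 37 rows thus rose or fell no more often than all rows. The genes named below were picked for the smallest p values in their lists. Of these 37 none passed between eIF4E and vector cells in input, in Cap IP or in the difference. SLIRP, which binds mitochondrial mRNAs together with LRPPRC and whose exons lie opposite SNW1, rose by 2.69 ± 0.34 in eIF4E cells and 1.75 ± 0.32 in vector cells (edgeR adjusted p = 6.90e-06 and 0.000340). POLRMT, the mitochondrial RNA polymerase, had 13.1, 11.4 and 21.4 CPM in eIF4E Cap IP against 36.4, 33.5 and 41.2 in eIF4E input, and 14.3, 11.3 and 11.9 in vector Cap IP against 20.3, 29.9 and 23.6 in vector input. It fell by 1.27 ± 0.33 in eIF4E cells and by 0.98 ± 0.34 in vector cells (edgeR adjusted p = 0.00385 and 0.0261). DHX30, an RNA helicase of mitochondrial RNA granules, fell by 1.34 ± 0.30 in eIF4E cells and by 1.50 ± 0.31 in vector cells (edgeR adjusted p = 0.00136 and 0.000757). PDE12, which trims poly(A) tails in mitochondria, fell by 1.83 ± 0.48 in eIF4E cells and by 1.43 ± 0.46 in vector cells (edgeR adjusted p = 0.00413 and 0.0182).

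ELAC2, which cuts the 3′ ends of tRNA precursors and lies opposite ARHGAP44, fell by 1.26 ± 0.36 in eIF4E cells and by 1.03 ± 0.36 in vector cells (edgeR adjusted p = 0.00830 and 0.0276). C10orf2, the helicase Twinkle of mitochondrial DNA replication, opposite MRPL43, fell by 1.04 ± 0.41 in eIF4E cells (edgeR adjusted p = 0.0440), and its vector value was -0.69 ± 0.43 (edgeR adjusted p = 0.214). In vector cells NSUN4, which methylates the small subunit rRNA, rose by 2.00 ± 0.44 (edgeR adjusted p = 0.00153), with 26, 19 and 16 counts in vector Cap IP against 8, 5 and 13 in vector input, and its eIF4E value was 0.95 ± 0.43 (edgeR adjusted p = 0.0746). POLG, the mitochondrial DNA polymerase, opposite FANCI, fell by 0.82 ± 0.28 in vector cells (edgeR adjusted p = 0.0262), and its eIF4E value was -0.03 ± 0.28 (edgeR adjusted p = 0.948).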

How the data were processed

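RNA of 12 U2OS libraries was measured by sequencing, and the deposited table holds whole-number read counts for 58684 rows, made by the authors. Per the submitters' processing notes, the tools and build were STAR 2.5.1b, featureCounts 1.4.5-p1, DESeq2 and GRCh38.p5. Neither the counted strand nor the handling of reads with several matches is stated there, in the labels or in the file.

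From these counts, rows that passed filterByExpr (12460) were fitted in edgeR 4.0.16 (R 4.3.3, limma 3.58.1) with TMM library sizes, 1 mean for each of the 4 groups and the quasi-likelihood test. Benjamini-Hochberg adjustment ran over all rows tested in each of 5 comparisons, and a row was called at an adjusted p under 0.05. SE is the absolute log2 change divided by the square root of F. CPM values are TMM-scaled, and differences per culture are of log2(CPM + 2). Libraries held 1206321 to 1813486 counts, so low rows rest on few counts. DESeq2 1.42.0, other library sizes, other filters, replicate blocks and leaving out each library were the alternatives. The fits were tested on simulated data. Positions and lengths come from GENCODE 44, handled with Python 3.11.15, pandas 2.3.3, NumPy 2.4.6, Biopython 1.88 and matplotlib 3.10.9.

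The title stem and the title tag could each pair libraries. Deviations from the group means of libraries with the same stem had correlations of 0.35, 0.08 and 0.11 in eIF4E cells and 0.43, 0.27 and 0.44 in vector cells, so all 3 pairs passed 0.1 in vector cells and 2 of 3 in eIF4E cells. In both, input and Cap IP share a stem of their own in the titles, and values with the stem as a replicate block stand beside each call they change. Libraries with the same tag had correlations of 0.20, 0.16 and 0.31 in Cap IP and 0.18, 0.01 and -0.04 in input, so all 3 passed 0.1 in Cap IP and 1 of 3 in input.

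The members and lists were chosen with earlier results of these data known. Printed with tests in each comparison were MT-RNR1, MT-RNR2, MT-ND6, MT-CO1, the 3 mRNA rows and the 3 tRNA rows with the smallest p, and up to 2 rows of each list of nuclear genes. Other rows named were chosen after their values were seen.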

Additional observations from a re-analysis of the deposited data

Results flagged for a closer look

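For MT-TQ and MT-TA, all eIF4E cultures had more of the row in Cap IP than in input and all vector cultures had less, on the log2(CPM + 2) scale. The differences of MT-TQ were 1.38, 0.04 and 0.23 in eIF4E cultures and -0.94, -1.10 and -0.87 in vector cultures, and the means lay 1.52 apart. For MT-TQ the sign in eIF4E cultures 2 and 3 rests on the TMM scaling. As a share of total counts, MT-TQ was lower in Cap IP than in input in these cultures. Those of MT-TA were 2.26, 1.08 and 0.65 in eIF4E cultures and -0.42, -0.82 and -0.38 in vector cultures, and the means lay 1.87 apart. For MT-TE, eIF4E minus vector by title tag was 0.10, 0.43 and 1.35 in Cap IP and -3.36, -0.72 and -0.18 in input, a mean difference of 2.05. Without vector input 1 the MT-TE difference between changes was 0.99 in the edgeR fit without a replicate block. In the edgeR fit across all rows without a replicate block, none of these 3 differences between changes passed (edgeR adjusted p = 0.832 for each). With the culture stem as a replicate block all 3 passed, at 1.57 for MT-TQ, 2.11 for MT-TA and 2.39 for MT-TE (edgeR adjusted p = 0.0374, 0.0235 and 0.00804). In that fit 51 of all 12460 rows passed.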

How the results depend on the processing

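Leaving out 1 library gave 8 to 10 called MT- rows for Cap IP against input in eIF4E cells, 9 to 13 in vector cells, and 0 in the other comparisons. Over all rows those fits called 2273 to 2696 lower and 2286 to 2645 higher in eIF4E cells. In vector cells they called 2107 to 2547 lower and 1883 to 2137 higher. With no filter on low counts 5 MT- rows were called between eIF4E and vector input, where 318 of all 33699 rows were. In the difference between changes 1 MT- row was called without the filter, where 3 of all 33699 rows were. The title tag as a replicate block called 1 MT- row in input, MT-TE, among 464 of all 12460 rows. The culture stem as a replicate block called 4 MT- rows in the difference, MT-TQ, MT-TA, MT-TE and MT-TP, among 51 of all 12460 rows. For Cap IP against input it called 10 MT- rows lower and 4 higher in eIF4E cells, where 3436 of all rows were lower and 3251 higher. In vector cells it called 14 MT- rows, all lower, where 3187 of all rows were lower and 2894 higher. The labels do not say what stems and tags mark. With total counts as library sizes, Cap IP against input in eIF4E cells became -0.27 for MT-ND5 and -0.22 for MT-ND6. For MT-RNR2 between eIF4E and vector Cap IP, total counts gave -0.060, no filter -0.0031, a minimum of 50 counts in 3 libraries -0.025 and the tag block -0.047. Leaving out 1 library also turned the sign of values that had not passed. Cap IP against input ran from -0.10 to 0.95 for MT-ND5 in eIF4E cells, and in vector cells from -1.17 to 0.34 for MT-ND1, -0.74 to 0.23 for MT-ND5 and -0.53 to 0.28 for MT-ND6. Between eIF4E and vector cells in Cap IP the ranges were -1.70 to 1.16 for MT-RNR1, -0.63 to 0.32 for MT-RNR2 and -0.61 to 1.09 for MT-TT, and in input -0.47 to 0.21 for MT-ND6. The difference ran from -0.26 to 3.66 for MT-RNR1 and -0.045 to 0.46 for MT-CO1. Without replicate 2 in both Cap IP groups, an alternative chosen after seeing the data, Cap IP against input in vector cells was 0.34 for MT-ND1, 0.23 for MT-ND5 and 0.18 for MT-ND6, and MT-RNR2 between eIF4E and vector Cap IP was -0.87. The cause was not tested for any of these. The rRNA rows and MT-TW, MT-TI and MT-TT rest on few counts.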
